A study of Mus musculus with 14 samples.

Results

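The genes described here are 10 genes of skeletal muscle measured in mouse heart: the skeletal myosin heavy chains Myh1, Myh2, Myh3, Myh4 and Myh8, the sarcomere protein gene Mybph, the calcium channel gene Cacna1s, the adhesion gene Cdh15, and the myogenic factors Myog and Myod1. They are 10 of the 54446 genes in the count table, found by gene ID through GENCODE vM21 on mouse build GRCm38. All 10 were chosen by their counts in these libraries, over the 4 groups, so their levels and differences are given as descriptions, with no test. Of the 10, 8 passed the filter on low counts, Myh4 did not, and Myod1 had no count in any library.

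The RNA came from nuclei of hearts of wild-type ICR mice, an outbred strain, taken on postnatal day 12 and enriched for PCM1, a protein at the nuclear surface of cardiomyocytes. Control mice received no virus (5 libraries). MEF2A mice received on postnatal day 7 an AAV9 virus that carries human MEF2A, a muscle transcription factor (4 libraries), and YAP5SA mice one that carries YAP5SA, a form of YAP that resists inhibition by the Hippo kinases (3 libraries). YAP5SA_MEF2A mice received both viruses (2 libraries). Each virus was given into the peritoneum at 1E11 genome copies and was driven by the cardiac troponin T promoter (cTnT), which acts in cardiomyocytes. No group received a virus without either factor, so an effect of AAV9 itself cannot be told apart from that of its cargo. Mice given both viruses received more virus in total than mice given either alone. Whether libraries came from separate animals is not stated, so their spread may be in part technical.

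Myosin heavy chain is the motor protein of the thick filament, and muscles differ in which gene they use. The heart of mice uses Myh6 and Myh7, while fast skeletal fibres use Myh2, Myh1 and Myh4, and immature skeletal muscle uses first the embryonic chain Myh3 and then the perinatal chain Myh8. Skeletal muscle forms under basic helix-loop-helix factors such as Myod1 and Myog, which bind E-boxes and act with MEF2 factors, while YAP acts mainly through TEAD factors.

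Total counts were 16171068 to 24027622 per library, and values below are read counts scaled to library size by TMM, in the usual unit CPM. Controls 1 and 2 held 60.75% and 67.54% mitochondrial counts and YAP5SA 3 held 32.2%, against 3.802% to 23.21% in the other libraries. A floor of 3 counts was 0.1008 to 0.391 CPM in a library. The labels name 2 batches: the first has 2 libraries from every group, the second 3 from Control, 2 from MEF2A and 1 from YAP5SA. By Xist and Y-linked transcripts all 3 YAP5SA libraries were male and both YAP5SA_MEF2A libraries female, so sex and group cannot be told apart between them. Control held 3 male and 2 female libraries and MEF2A 1 male and 3 female, so sex was uneven in the other comparisons too. All 13 cardiomyocyte markers had counts in every group, with a summed level of 27700 to 39800 CPM in YAP5SA, 38000 to 42500 in YAP5SA_MEF2A, 50900 to 83800 in Control and 80400 to 82900 in MEF2A. A smaller share of cardiomyocyte nuclei and less RNA of these genes per nucleus cannot be told apart in such pools.

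The 5 myosin genes lie in 1 cluster on chromosome 11, all on the plus strand, in the order Myh3, Myh2, Myh1, Myh4 and Myh8, over 230.3 kb. The intervals are chr11:67078300-67102291 for Myh3, chr11:67171027-67197517 for Myh2, chr11:67200052-67224575 for Myh1, chr11:67238029-67260446 for Myh4 and chr11:67277124-67308634 for Myh8. Chromosome 1 holds Mybph at chr1:134193448-134201232, Myog at chr1:134289989-134292548 and Cacna1s at chr1:136052750-136119822. Mybph and Myog are neighbours: 88.8 kb separate them, with 0 protein-coding genes between. Cdh15 is at chr8:122847966-122867397 and Myod1 at chr7:46376474-46379099.

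Promoter windows of 300 bases, from 250 before to 50 after the start, were matched by symbol in RefSeq (GRCm38) for 9 of the 10 genes. The upstream stretches of the 4 myosins Myh1, Myh2, Myh4 and Myh8 are shown because they share 2 blocks of letters, in capitals, which the window of Myh3 lacks.
Myh1, chr11:67199867-67200016, plus strand: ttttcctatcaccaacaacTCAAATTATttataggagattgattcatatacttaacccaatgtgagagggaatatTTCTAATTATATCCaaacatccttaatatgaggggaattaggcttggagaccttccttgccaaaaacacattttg
Myh2, chr11:67170827-67170976, plus strand: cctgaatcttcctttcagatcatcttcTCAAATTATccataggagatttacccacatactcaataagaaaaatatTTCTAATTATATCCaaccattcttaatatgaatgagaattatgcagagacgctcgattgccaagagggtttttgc
Myh4, chr11:67237579-67237728, plus strand: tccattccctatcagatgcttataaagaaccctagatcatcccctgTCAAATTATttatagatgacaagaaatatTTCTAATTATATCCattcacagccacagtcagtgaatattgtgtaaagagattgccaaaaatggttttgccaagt
Myh8, chr11:67276995-67277123, plus strand: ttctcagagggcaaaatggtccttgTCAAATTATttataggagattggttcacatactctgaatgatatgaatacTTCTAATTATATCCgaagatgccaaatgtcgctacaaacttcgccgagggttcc

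The 14-base block TTCTAATTATATCC was in 4 of 32544 mouse promoter windows, which is 0.0123%, and these were the 4 myosins. It began 160 bases before the RefSeq start of Myh1, at -125 for Myh2, -158 for Myh4 and -54 for Myh8. For some of these genes, Myh1 and Myh4 among them, the RefSeq start differs from that of the GENCODE interval given above. The 9-base block TCAAATTAT was in 0.181% of windows. In Myh1, Myh4 and Myh8 the last bases of that 9-base block overlap a match to the MEF2 consensus, which 3.16% of windows hold, and in Myh2 no match was found. The 4 genes sharing a block are paralogues, so the blocks are not 4 independent occurrences, and a match is no evidence of binding.

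Motifs were searched on both strands. The E-box CANNTG was in 7 of the 9 windows and in 72.3% of all windows. The TEAD motif CATTCC was in 4 of the 9 (Myh1, Myh4, Mybph and Cacna1s) and in 14.6% of all windows. Mybph and Cacna1s are shown because an E-box and a TEAD motif, both in capitals, lie within a few bases of each other. In Mybph they abut without overlap, from -79 and -73. The window of Myh4 holds such a pair too, a TEAD motif from -231 and an E-box from -221, in lower case in the stretch printed above.
Mybph, chr1:134193335-134193420, plus strand: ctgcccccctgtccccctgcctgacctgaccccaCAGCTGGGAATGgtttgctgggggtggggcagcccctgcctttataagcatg
Cacna1s, chr1:136052641-136052726, plus strand: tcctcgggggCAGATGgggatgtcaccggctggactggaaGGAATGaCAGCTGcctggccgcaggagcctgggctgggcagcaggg

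**Figure D1:**
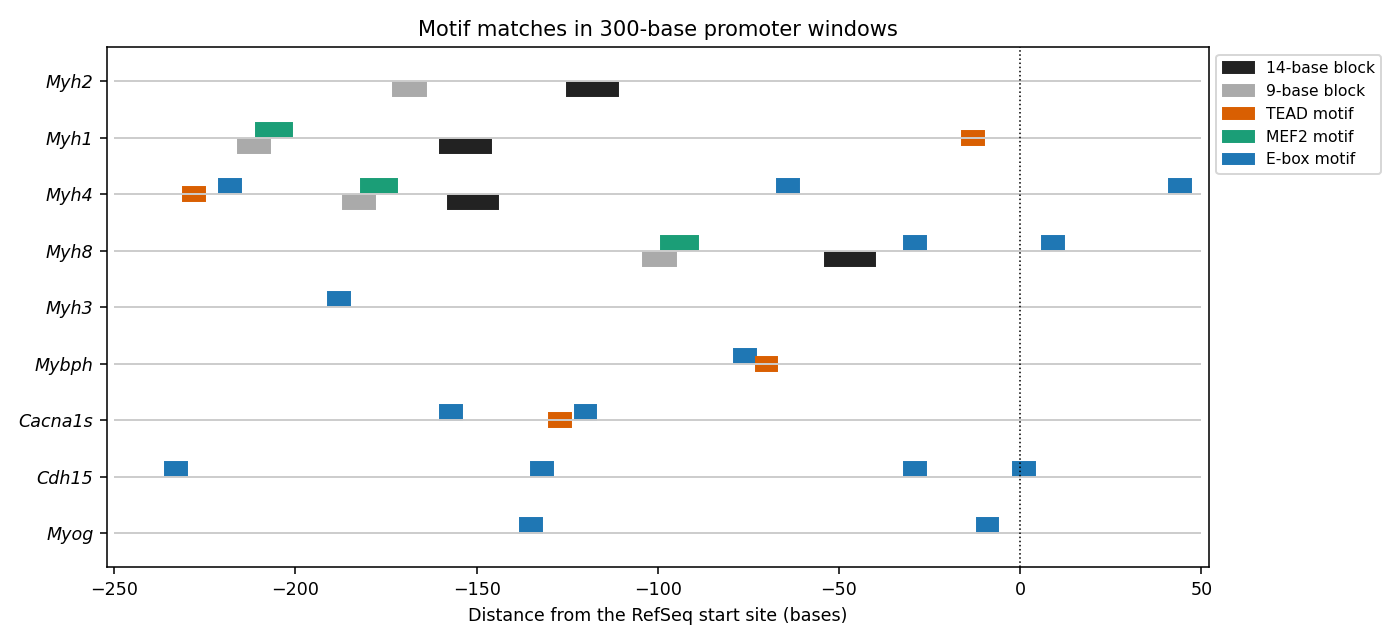
Motif matches in the promoter windows of 9 genes, by distance from the RefSeq start site in bases (horizontal axis), 1 row per gene. Boxes are matches on either strand; the 14-base and 9-base blocks appear only in the rows of Myh1, Myh2, Myh4 and Myh8 among these 9 genes.

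Without YAP5SA, Myh1 and Myh2 were at 0 or low, at most 0.381 CPM (MEF2A 1) and 1.02 CPM (Control 3). Myh8 was low there but above the floor in every library. All of Myh1, Myh2 and Myh8 were measurable in every library that received YAP5SA. Myh3 and Myh4 were at 0 counts in some YAP5SA libraries. Of the 8 genes that passed the filter, 7 were higher in all YAP5SA libraries than in all Controls, where 8.51% of the 17987 genes tested were. The exception was Myh3. Nothing is read from this share, because the genes were picked with these values known. The count was also 7 within batch 1, and 7 without Controls 1 and 2 and YAP5SA 3. The share over all genes was not computed in these subsets, so nothing is read from these counts either. The latter subset sets YAP5SA libraries of batch 1 against Controls of batch 2, so group and batch cannot be told apart in it.

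Myh8, the perinatal chain, was the only one of the 5 with counts in all 14 libraries. Its level was 4.65, 4.95, 2.65, 4.13 and 4.31 CPM in Controls 1 to 5, and 1.63, 0.686, 2.25 and 1.09 CPM in MEF2A 1 to 4. It was 26.5, 60.8 and 37 CPM in YAP5SA 1 to 3 and 103 and 80.4 CPM in YAP5SA_MEF2A. The 4 groups did not overlap: MEF2A was lowest, then Control, then YAP5SA, then both viruses. The fitted log2 difference from Control, with group and batch as terms, was 3.32 ± 0.33 (SE) for YAP5SA, 4.44 ± 0.39 for both viruses and -1.51 ± 0.33 for MEF2A.

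Among the 8 genes, Myh8 was the only one lower in every MEF2A library than in every Control, where 0.945% of all genes tested were. Its lowest Control, 2.65 CPM, and highest MEF2A library, 2.25 CPM, lay close together. Of all 17987 genes, edgeR called 3 higher (0.0167%) and 0 lower (0%) in MEF2A against Control, with DESeq2 calling 84 in all. No gene of the 8 was higher without overlap there, where 1.87% of genes were.

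Myh2, a chain of fast oxidative fibres, was 0, 0, 1.02, 0.101 and 0.308 CPM in Controls 1 to 5 and 0, 0.187, 0 and 0.364 CPM in MEF2A 1 to 4. It was 42.5, 44.9 and 17.5 CPM in YAP5SA 1 to 3, and 90.9 and 120 CPM with both viruses. Control and MEF2A overlapped, and the other groups stood above them and apart from each other. The fitted log2 difference from Control was 6.65 ± 0.88 for YAP5SA, 8.25 ± 1.06 for both viruses and -1.41 ± 1.18 for MEF2A. Over the alternatives it ran from 5.48 to 12.67, 6.87 to 13.95 and -2.67 to 3.82, and the highest of each came from batch 1 alone, where both Controls were at 0. The direction for MEF2A is therefore not fixed. Pooled over libraries, YAP5SA was 96.7 times Control (95% counting interval 69.7 to 138).

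Myh1, another fast chain, had 0 counts in all 5 Controls. Its only counts without YAP5SA were 7 in MEF2A 1, which is 0.381 CPM. The level was 8.09, 8.71 and 5.16 CPM in YAP5SA 1 to 3 and 37.1 and 38.9 CPM with both viruses. Against a floor of 3 counts over the Control group, YAP5SA was at least 240-fold higher and both viruses at least 1230-fold higher.

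Myh4, the chain of the fastest fibres, had 0 counts in Control and MEF2A, 1 count in YAP5SA 2, and 7 and 2 counts with both viruses, so it stayed near the floor. Both viruses stood 5.75-fold above Control against the same floor, with their 9 counts taken as exact. Myh3, the embryonic chain, was 0.793, 0, 0.449, 0.403 and 0.346 CPM in Controls 1 to 5, and 0.586, 0 and 0 CPM in YAP5SA 1 to 3. MEF2A libraries ranged from 0 to 0.288 CPM, and the libraries with both viruses held 1.24 and 1.42 CPM, above every other library. For Myh3 the fitted log2 difference from Control was -1.21 ± 1.85 with YAP5SA and 1.47 ± 2.03 with both viruses, each smaller than its SE.

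**Figure D2:**
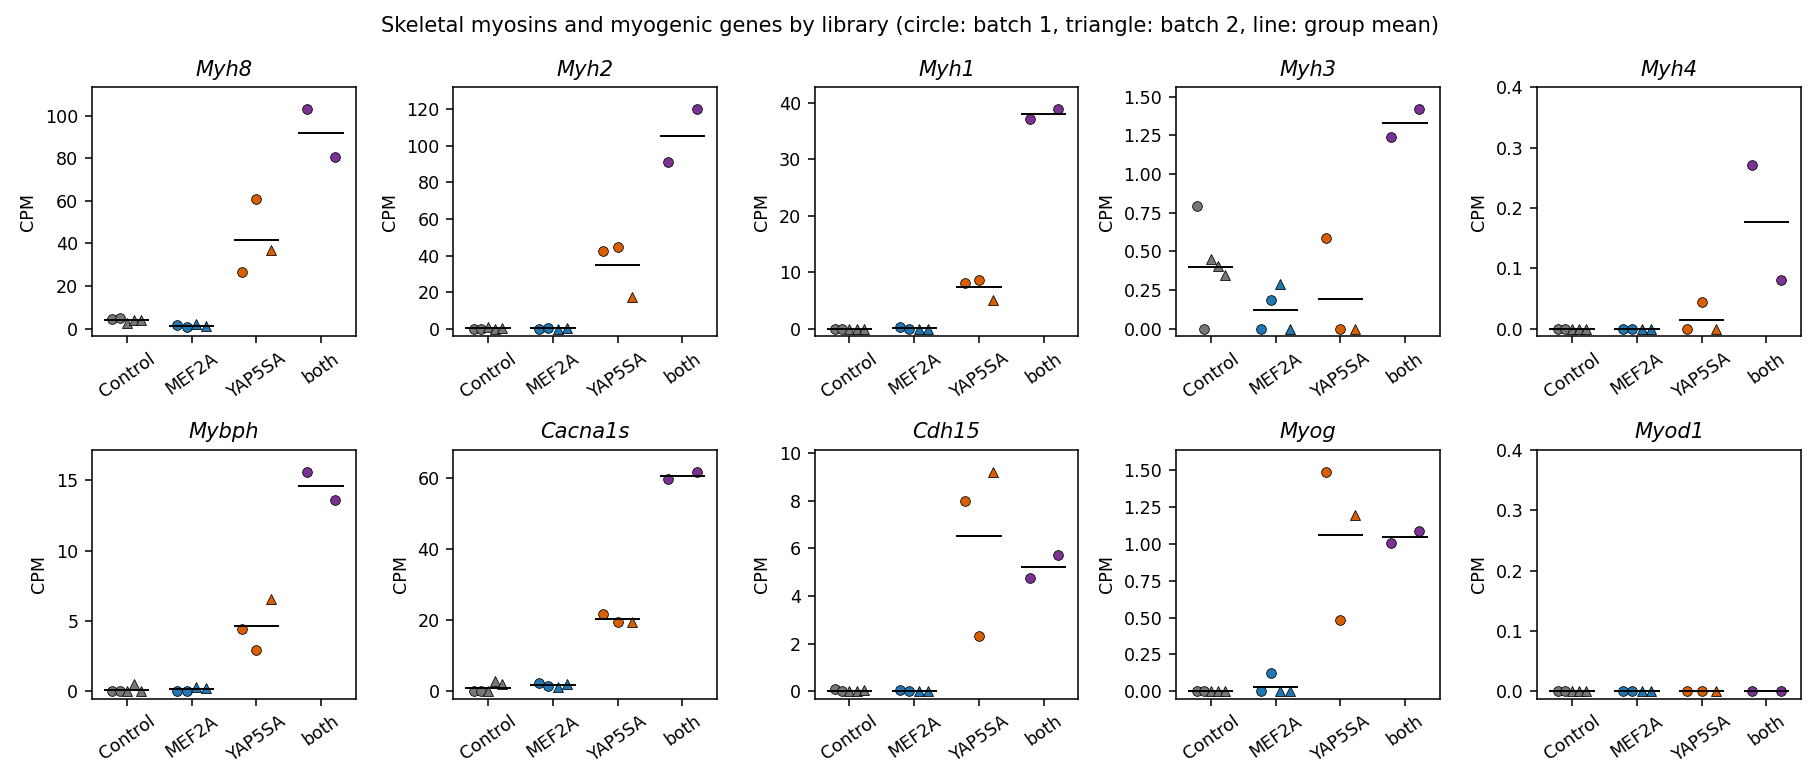
CPM of the 10 genes (vertical axes, each starting at 0 and scaled to its gene) in Control, MEF2A, YAP5SA and both viruses; each point is a library and each line a group mean. Myh8, Myh2, Myh1, Mybph and Cacna1s step up from YAP5SA to both viruses, Cdh15 and Myog overlap between these groups, and Myod1 is at 0 throughout.

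Per kilobase of exon, the order of genes within a group can be compared. In YAP5SA, Myh2 stood at 4.9 ± 2.13 CPM per kb (SD, n = 3), Myh8 at 3.52 ± 1.5 and Myh1 at 1.15 ± 0.299. Myh2 and Myh8 overlapped there, while Myh1 lay below both. With both viruses Myh2 was 14.8 ± 2.9 CPM per kb (SD, n = 2), Myh8 7.77 ± 1.33 and Myh1 5.99 ± 0.201, and on this length Myh2 did not overlap the others. The exon length of Myh8, 11772 bases over all annotated transcripts, is long for a myosin. With the longest coding transcript instead, Myh8 came to 6.74 ± 2.86 and 14.9 ± 2.54 CPM per kb in these 2 groups, against 5.75 ± 2.5 and 17.3 ± 3.4 for Myh2, so the order of the means turns with the length used in YAP5SA. With transcript lengths Myh2 and Myh8 overlapped with both viruses too (14.9 to 19.8 against 13.1 to 16.7 CPM per kb), so the data do not order this pair in either group.

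**Figure D3:**
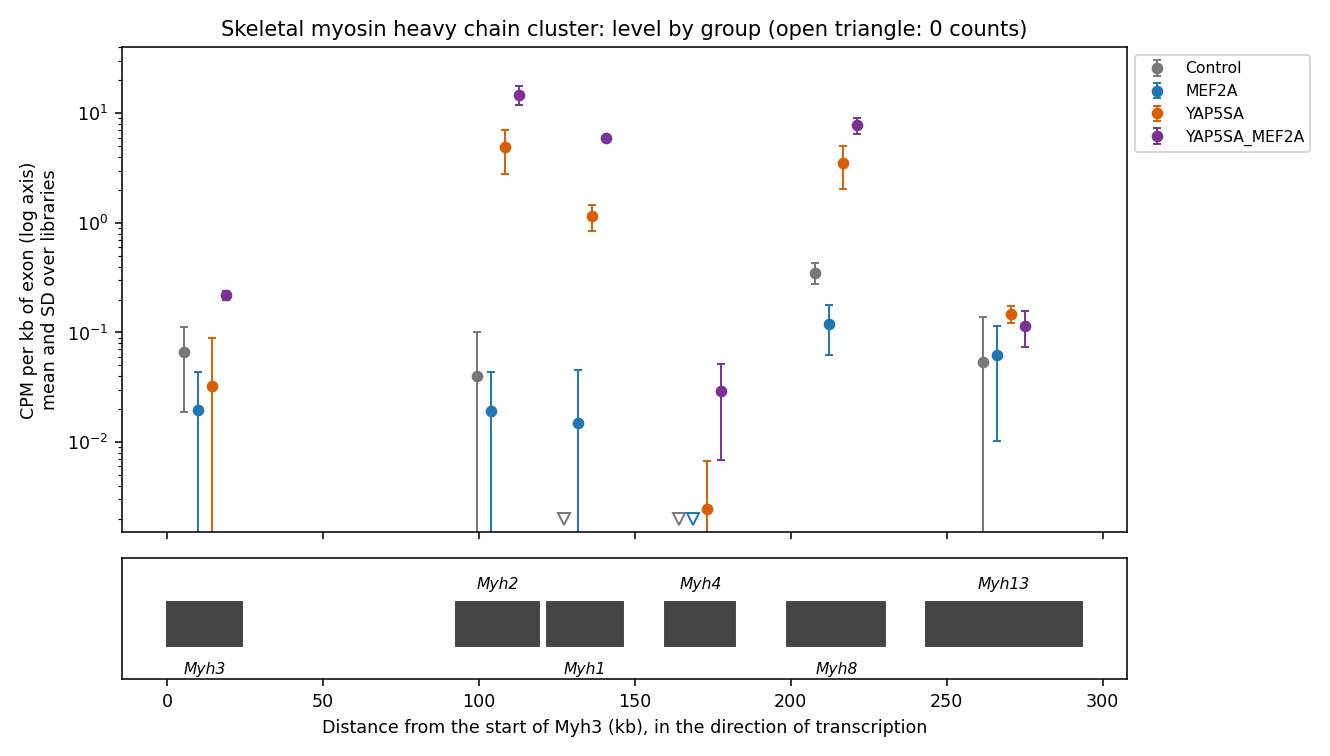
Mean CPM per kb of exon with SD over libraries (log axis) for each group, above the genes of the cluster by distance in kb from the start of Myh3; bars that reach the lower edge extend to or below 0. Myh2, Myh1 and Myh8 are raised in the 2 groups with YAP5SA, while Myh4 between Myh1 and Myh8 stays near 0. Myh13, at the far end, overlaps between Control and the other groups by library, but every YAP5SA library lies above every MEF2A library.

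As a share of sarcomeric myosin heavy chain (the 5 skeletal genes over these plus Myh6 and Myh7, each per exon length), the skeletal genes were minor in every library. In Control it was 0.0115% ± 0.0042 (SD, n = 5) and in MEF2A it was 0.00276% ± 0.000848 (SD, n = 4). With YAP5SA it reached 0.423% ± 0.134 (SD, n = 3) and with both viruses 1.04% ± 0.00111 (SD, n = 2). No groups overlapped. Both parts of the ratio differed between groups: Myh6, the main adult heart chain, was 4340 ± 1690 CPM per kb in Control, 6160 ± 415 in MEF2A, 2160 ± 111 in YAP5SA and 2640 ± 167 with both viruses.

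Identical stretches can send reads to the wrong paralogue. Of all 100-base windows in the longest coding transcript, 9.46% of Myh1, 9.17% of Myh2, 5.17% of Myh8, 3.85% of Myh4 and 0% of Myh3 also occurred in another of these myosins. None occurred in Myh6 or Myh7. Of 50-base windows, 26.1% of Myh1, 26.7% of Myh2, 19.9% of Myh8, 18.6% of Myh4 and 3.66% of Myh3 did, and 10 windows of Myh1 and 7 of Myh4 occurred in Myh6 and in Myh7. The read length is not given in the sources used here. The few Myh4 counts are therefore uncertain.

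Antisense partners add doubt because the libraries were not directional. Myhas, which shares 515 exon bases with Myh1, had 0 counts in Control and MEF2A and 10 to 12 with both viruses. The antisense gene 9430073C21Rik, which shares 237 exon bases with Myh2, had 0 counts without YAP5SA, 4 to 12 with YAP5SA and 41 to 60 with both viruses. Reads of these pairs cannot be told apart by strand.

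Mybph, a thick filament protein related to myosin binding protein C, was 0 CPM in every Control except Control 4, which held 0.538 CPM. It was 0.0544, 0, 0.336 and 0.243 CPM in MEF2A 1 to 4, 4.42, 2.95 and 6.56 CPM in YAP5SA 1 to 3, and 15.6 and 13.6 CPM with both viruses. The groups with YAP5SA stood above the others and apart from each other. The fitted log2 difference from Control was 6.04 ± 1 for YAP5SA and 8.31 ± 1.17 for both viruses. All 16 Control counts of Mybph came from Control 4, and without that library the values were 10.28 and 12.48, where every Control left was at 0 and the fitted size has no bound. Pooled over libraries, YAP5SA was 27.6 times Control (95% counting interval 16.7 to 48.8) and both viruses 88.3 times (54 to 155). Its neighbour Adora1 shares 1162 exon bases on the other strand and was 4.19 ± 1.2 CPM in Control, 12.7 ± 8.08 in YAP5SA and 7.64 ± 0.489 with both viruses, and reads of this pair cannot be told apart by strand either.

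Cacna1s, the voltage-sensing channel of skeletal muscle, was 0 CPM in Controls 1 to 3 and 2.82 and 2.08 CPM in Controls 4 and 5. Controls 1 to 3 were male and Controls 4 and 5 female, and a part of sex was not tested. MEF2A libraries held 2.23, 1.43, 1.25 and 2.07 CPM. YAP5SA libraries were close together at 21.9, 19.5 and 19.5 CPM, and those with both viruses at 59.7 and 61.8 CPM. Control and MEF2A overlapped, and no other groups did. The fitted log2 difference from Control was 4.6 ± 1.05 for YAP5SA and 6.38 ± 1.26 for both viruses. In batch 1, where both Controls were at 0, the difference rests on the floor alone. The antisense gene Gm37759 shares 1309 exon bases with Cacna1s and had 13 to 19 counts with both viruses.

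Cdh15, or M-cadherin, which joins myoblasts and satellite cells to fibres, had 2 counts over the 5 Controls and 1 over the MEF2A libraries. It was 8.01, 2.33 and 9.22 CPM in YAP5SA 1 to 3, and 4.77 and 5.71 CPM with both viruses, inside the YAP5SA range. Pooled over libraries, YAP5SA was 313 times Control (95% counting interval 86.2 to 2590) and both viruses 253 times (69.4 to 2100). Between both viruses and YAP5SA the fitted log2 difference of Cdh15 was -0.33 ± 0.92.

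Myog, a myogenic factor that acts late in myoblast differentiation, had 0 counts in every Control and 2 counts in MEF2A 2 alone of that group. It had 38, 11 and 24 counts in YAP5SA 1 to 3 and 26 and 27 with both viruses, or 1.49, 0.484, 1.2, 1.01 and 1.09 CPM. Both groups overlapped. Against a floor of 3 counts over the Controls, YAP5SA was at least 34.5-fold and both viruses at least 33.9-fold higher. Myod1, the factor that commits cells to muscle, had 0 counts in all 14 libraries, which allows up to 0.1008 to 0.391 CPM in each.

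Adding MEF2A to YAP5SA went with higher levels of 6 of the 8 genes: Myh1, Myh2, Myh3, Myh8, Mybph and Cacna1s were higher in both YAP5SA_MEF2A libraries than in every YAP5SA library, as were 11.2% of all genes tested. The fitted log2 difference was 1.96 ± 0.77 for Myh1, 1.6 ± 0.82 for Myh2, 1.12 ± 0.4 for Myh8, 2.27 ± 0.95 for Mybph and 1.78 ± 1.11 for Cacna1s. For Myh3 it was 2.69 ± 1.95, on 15, 0 and 0 counts in YAP5SA 1 to 3 against 32 and 35 with both viruses. Myog was -0.37 ± 1.45 and overlapped between the groups, as did Cdh15. Of 13 cardiomyocyte markers 7 were also higher without overlap in this comparison, and of 8 other myosin heavy chains 3 were, with none called, and their part in the result was not tested. Added MEF2A, total virus dose and sex cannot be told apart here. Over all genes edgeR called 0 higher or lower (0%) in this comparison at an adjusted p under 0.05, with 516 at an unadjusted p under 0.05, 17 by DESeq2 and 1 by limma-voom.

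Comparing both viruses with MEF2A alone, which shares no library with YAP5SA against Control, all 8 genes were higher without overlap, where 22.8% of genes tested were. Fitted log2 differences were 9.66 ± 1.13 for Myh2, 7.81 ± 1.18 for Mybph, 5.95 ± 0.43 for Myh8 and 5.45 ± 1.17 for Cacna1s. Against Control, which these values share with YAP5SA against Control, the 8 genes were also higher with both viruses without overlap, where 14.9% of genes were. The genes were chosen by counts over all 4 groups, these libraries included, so nothing is read from either share. Myh1, Cdh15 and Myog had at most 7 counts in any library without YAP5SA, so they passed the filter only through libraries that received it.

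The rest of the skeletal muscle programme was read in 58 other genes, here called companions, of which 44 passed the filter and 3 had no count. In YAP5SA against Control, where edgeR called 5.68% of genes higher and 4.16% lower, 4 rose and 3 fell, and the median log2 difference was -0.17 against 0.06 over all genes. Of 13 fast fibre genes, 11 were tested and none was called, with 2 at an unadjusted p under 0.05. Among them Acta1, skeletal actin, had a log2 difference of -0.41 ± 1.01 (adjusted p = 0.851, edgeR) and Mybpc2, fast myosin binding protein C, 0.73 ± 0.34 (adjusted p = 0.193). Tnnc2, fast troponin C, had 0 counts in all 14 libraries.

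Of 6 slow or embryonic sarcomere genes, 2 fell in YAP5SA and none rose. Tnnt1, slow skeletal troponin T, was 132 to 227 CPM in Control and 27.8, 59.2 and 23.8 CPM in YAP5SA 1 to 3, without overlap, a log2 difference of -2.26 ± 0.31 (adjusted p = 0.000226, edgeR). It was also lower with both viruses than with MEF2A alone, with a log2 difference of -1.93 ± 0.36 (adjusted p = 0.00881), a call lost without YAP5SA_MEF2A 1 (adjusted p = 0.156) or 2 (0.105). Myom3, an M-band protein, fell by 1.3 ± 0.39 on the log2 scale with YAP5SA (adjusted p = 0.0438). That call was lost when any of 10 libraries was left out (Controls 1, 3 and 4, MEF2A 1 to 3, YAP5SA 1 and 3, and both YAP5SA_MEF2A), with adjusted p from 0.0525 to 0.267. Myl4, the atrial and embryonic light chain, had a log2 difference of -0.39 ± 0.32.

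Among 13 excitation-contraction coupling genes, 12 tested, 1 rose and 1 fell. Casq1, the calcium store protein of fast fibres, was 10 to 16.1 CPM in Control and 77.9, 27.4 and 59.4 CPM in YAP5SA 1 to 3, without overlap, a log2 difference of 2.12 ± 0.36 (adjusted p = 0.00184, edgeR). With both viruses it was 32.6 and 30.7 CPM. Scn4a, the skeletal sodium channel, fell by 1.76 ± 0.49 on the log2 scale (adjusted p = 0.0283), a call lost without Control 1 (0.0526), YAP5SA 1 (0.121) or YAP5SA 3 (0.205). Cacnb1, the beta subunit that partners Cacna1s, had -0.65 ± 0.26 (adjusted p = 0.132) and Ryr3, a calcium release channel, 1.33 ± 0.6 (adjusted p = 0.193). Library totals in place of TMM shift the median of all genes from 0.06 to 0.69, and with them Scn4a stood at -1.06 (adjusted p = 0.297).

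Of 9 neuromuscular junction genes, only 4 were tested, and Chrnb1 rose. Chrnb1, the beta subunit of the muscle acetylcholine receptor, was 19.6 to 25.3 CPM in Control and 125, 47.1 and 86.3 CPM in YAP5SA 1 to 3, a log2 difference of 2 ± 0.24 (adjusted p = 6.2e-05, edgeR). With both viruses it was 58.6 and 53.6 CPM, also above every Control. Dok7, an activator of the junction kinase MuSK, had -0.61 ± 0.21 (adjusted p = 0.077) with YAP5SA. Of 17 regulators and myoblast genes, 11 were tested and 2 rose. Itga7, a laminin receptor of muscle, rose by 0.85 ± 0.19 (adjusted p = 0.00879) and Ncam1, an adhesion molecule, by 1.02 ± 0.25 (adjusted p = 0.0159). Without YAP5SA 1 or 3 neither was called (adjusted p of 0.0604 and 0.0926 for Itga7, 0.114 and 0.109 for Ncam1). Ncam1 was also higher with both viruses than with MEF2A alone, by 1.45 ± 0.3 (adjusted p = 0.0158), a call lost without MEF2A 2 (0.0711) or YAP5SA_MEF2A 1 (0.281).

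In the other comparisons fewer of the 44 were called. With both viruses against Control 1 rose and 1 fell (Chrnb1 and Tnnt1), where edgeR called 1.16% of all genes higher and 0.195% lower. Against MEF2A alone 3 rose (Casq1, Chrnb1 and Ncam1) and 2 fell (Tnnt1 and Dok7), where 1.61% were higher and 0.712% lower. Each of these 7 calls was lost without YAP5SA_MEF2A 1, with adjusted p from 0.156 (Tnnt1 against MEF2A) to 0.308 (Chrnb1 against MEF2A). In both viruses against MEF2A, Casq1 and Chrnb1 were each lost in 8 of 14 omissions of 1 library: Casq1 without Controls 1, 2 or 5, MEF2A 2, 3 or 4, or either YAP5SA_MEF2A, and Chrnb1 without Controls 1 or 4, any MEF2A or either YAP5SA_MEF2A (adjusted p from 0.05 to 0.308). The fall of Dok7 there, with a log2 difference of -1.18 ± 0.26 (adjusted p = 0.0239), was also lost without MEF2A 1 or 2. MEF2A against Control and both viruses against YAP5SA gave 0 calls among them, with 3 and 4 at an unadjusted p under 0.05.

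Without Controls 1 and 2 and YAP5SA 3, the libraries with most mitochondrial counts, 0 of the companion genes were called in YAP5SA against Control, and 75 genes were called over all genes against 1771. Tnnt1 then stood at -1.92 (adjusted p = 0.0918), Chrnb1 at 1.99 (0.0975) and Casq1 at 1.09 (0.599). These omissions leave Controls of batch 2 only and YAP5SA libraries of batch 1 only. Batch, sex, mitochondrial share and the loss of libraries cannot be told apart there. Without Controls 1 and 2 alone, 2050 genes and 9 companions were called, and without YAP5SA 3 alone 544 and 3. YAP5SA 3 also held a summed macrophage marker level of 860 CPM against 50.3 to 167 in the other 13, and its part in these results was not tested.

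**Figure D4:**
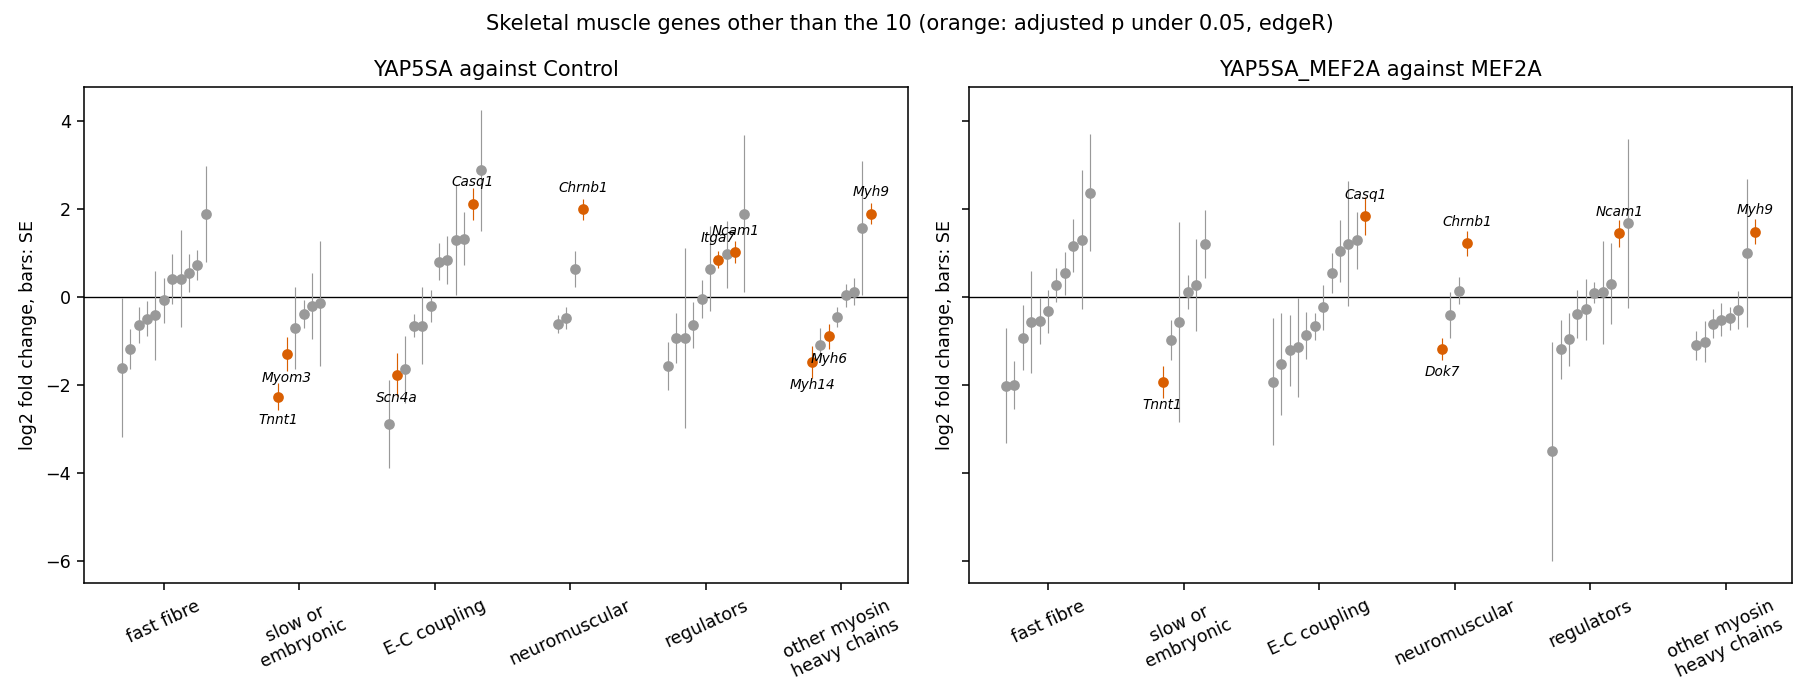
Log2 fold change with SE (vertical axis) of skeletal muscle genes by list (horizontal axis) for YAP5SA against Control and both viruses against MEF2A alone, which share no library; orange marks an adjusted p under 0.05 in edgeR, and Vgll2, at 0 counts without YAP5SA, is not drawn. Tnnt1 lies below 0 and Casq1, Chrnb1 and Myh9 above 0 in both panels, and most fast fibre genes scatter around 0.

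Of 8 other myosin heavy chains, edgeR called 1 higher and 2 lower in YAP5SA against Control. Myh9, a non-muscle chain, was 104 to 166 CPM in Control and 736, 282 and 527 CPM in YAP5SA 1 to 3, a log2 difference of 1.9 ± 0.24 (adjusted p = 0.000102). Without Controls 1 and 2 and YAP5SA 3 it stood at 1.51 (adjusted p = 0.189). Myh7, the slow and heart chain, had 0.12 ± 0.31 and Myh13, the extraocular chain beside Myh8, 1.57 ± 1.53. Myh6 had -0.89 ± 0.28 (adjusted p = 0.0491), a call lost in 11 of 14 omissions of 1 library (every library except Controls 2 and 3 and YAP5SA 2), with adjusted p from 0.0518 to 0.252. Myh14, another non-muscle chain, had -1.48 ± 0.37 (adjusted p = 0.023), lost without Control 1 (0.0594), YAP5SA 1 (0.0906) or YAP5SA 3 (0.157).

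Markers of whole skeletal fibres and of muscle precursors were summed in each library. The level of 12 fibre markers was 48.7 to 73 CPM in Control, 46.7 to 65.9 in MEF2A, 67.2 to 144 in YAP5SA and 64.7 to 73.7 with both viruses, and 1 of the 10 tested, Casq1, rose in YAP5SA. Without Casq1 the sum was 34.8 to 63 CPM in Control, 38.7 to 58.4 in MEF2A, 39.8 to 84.6 in YAP5SA and 34 to 41.1 with both viruses. Among the 10, 2 (Casq1 and Atp2a1) were higher in YAP5SA than Control without overlap and 0 lower, where 8.51% of genes tested were higher. Atp2a1 was 0 to 0.53 CPM in Control, 0 to 1.93 in MEF2A, 0.802 to 1.6 in YAP5SA, and 2.6 and 2.39 with both viruses. It was not called in YAP5SA against Control (adjusted p = 0.203, edgeR). The presence of skeletal fibres was not tested. Pvalb, parvalbumin of fast fibres, had at most 1 count in a library. For satellite cells and myoblasts, 10 markers summed to 2.32 to 12.3 CPM in Control, 5.89 to 13.8 in MEF2A, 6.76 to 14.3 in YAP5SA and 9.34 to 9.64 with both viruses, with 0 of 3 tested called and Pax7 at 0 in all 14.

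**Figure D5:**
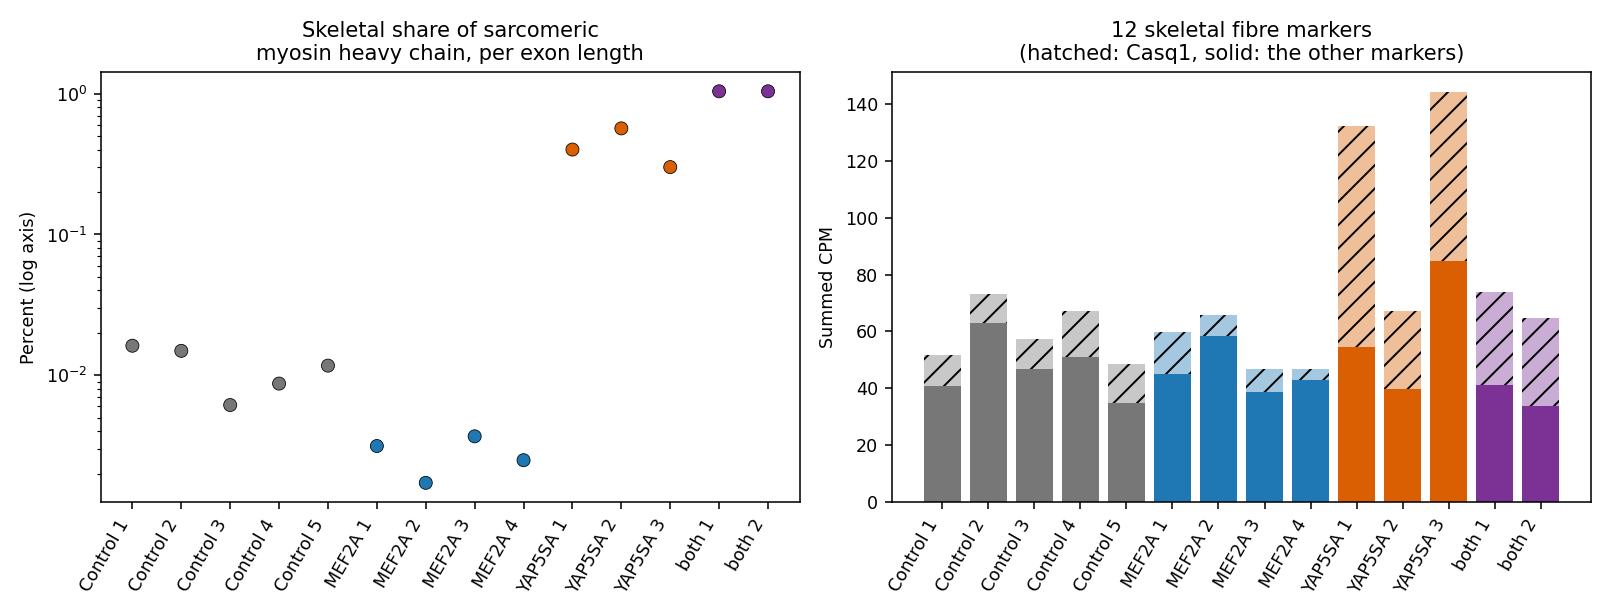
Left, the skeletal share of sarcomeric myosin heavy chain in percent (log axis) per library, which rises from under 0.02% in every Control and MEF2A library to 1.04% with both viruses. Right, the summed CPM of 12 skeletal fibre markers per library with Casq1 hatched, where libraries with both viruses (64.7 to 73.7 CPM) lie within the range of the others.

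For the 8 genes that passed the filter, the genes most like each were found by the root mean square difference of log2 CPM, each centred on its own mean, over all 14 libraries. The search took tested genes outside the 10, without clone or provisional names, whose mean log2 CPM was at most 2 below that of the gene. For Cdh15 it was Bmp8b at 0.34, then Peak1os at 0.47 and Col12a1 at 0.54. For Myog it was Zim1 at 0.39, Plod2 at 0.43 and Stard13 at 0.47. Myh8 was nearest to Pak3 at 0.72, Mybph to Col12a1 at 0.92, Myh1 and Myh2 both to Lrtm2 at 1.12 and 1.37, and Cacna1s to Prss27 at 1.16. Myh3, low throughout, was nearest to Kbtbd6 at 0.83. Bmp8b had 0 counts in Control and MEF2A, 5.3 ± 3.38 CPM in YAP5SA (SD, n = 3) and 3.94 ± 0.152 with both viruses (n = 2). Lrtm2 was 9.79 ± 3.8 CPM in YAP5SA and 9.07 ± 1.37 with both viruses, so it lacks the step of Myh1 between these groups. Among the 10, the nearest to Myh2 was Myh1, at 1.39, and the nearest to Cdh15 was Myh8, at 1.15.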

How the data were processed

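Polyadenylated RNA of PCM1-enriched heart nuclei was sequenced in 14 libraries. The authors deposited whole-number read counts per Ensembl gene, not normalized; STAR, limma and edgeR and build GRCm38 are named in the submitters' processing notes. The counting program, its strand setting and the tool versions are not given in the sources used here. Libraries were non-directional, per the labels' protocols.

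Symbols, positions and exon lengths came from GENCODE vM21 (54409 of 54446 genes had a symbol). Genes were kept by filterByExpr with a minimum count of 10 and a total of 15, which left 17987, and scaled by TMM. Differences were tested in edgeR by quasi-likelihood (glmQLFTest, robust) on 1 fit of all 14 libraries that holds group and batch, with Benjamini-Hochberg adjustment and a threshold of 0.05 (R 4.3.3, edgeR 4.0.16, limma 3.58.1, DESeq2 1.42.0). The common biological coefficient of variation was 0.5033. Standard errors of log2 differences come from the F statistic. Log2 CPM took a prior count of 2. Pooled ratios carry 95% exact counting intervals, which cover counting error only. Folds against a floor take the counts of the higher group as exact and bound only the group at 0 counts.

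The 10 genes and the lists were chosen with earlier results of these data known. The text names all 10, in each list the called genes with the smallest p and the 2 of highest mean CPM, and the genes most like those of the 10 that passed the filter. On simulated counts over 17087 genes, YAP5SA against Control recovered 13.7% of changes of 1 and 50.5% of changes of 2 on the log2 scale (3 of 65 calls false). Only 95 and 97 of the genes tested carried these changes and no batch effect was simulated, so the rates need not hold for the real comparison. No 2 columns were identical (0 pairs). Alternatives were other scalings, filters and tools, other covariates, batch 1 alone, and leaving out each library. Leaving out Controls 1 and 2, these and YAP5SA 3, and the transcript length were chosen after seeing the data.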

Additional observations from a re-analysis of the deposited data

Results flagged for a closer look

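Among 40 groups of 4 or 5 libraries examined, 6 held a library far from the others of its group. In 4 of them a single library held the only counts of a gene, so that any count stands apart and the chance rate of about 1 in 20 groups does not apply: Myh1 was 0.381 CPM in MEF2A 1, Mybph 0.538 CPM in Control 4, Cdh15 0.0544 CPM in MEF2A 1 and Myog 0.125 CPM in MEF2A 2, against 0 in the others of the group. Mybpc2 was 12.9 CPM in MEF2A 3 against 22.6 to 24.4 in the other MEF2A libraries. Cacnb1 was 90.4 CPM in MEF2A 2 against 119 to 121.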

How the results depend on the processing

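Fitted log2 differences of the 8 genes that passed the filter were recomputed under 995 alternative values, of which 168 moved by more than the spread between libraries or changed sign. For the 7 genes other than Myh3, 0 changed sign in YAP5SA against Control, both viruses against Control, or both viruses against MEF2A. Cdh15 and Myog each changed sign 5 times between both viruses and YAP5SA, and Myh3 changed sign 1 time in YAP5SA against Control. In MEF2A against Control, Cacna1s, Cdh15 and Myh1 each changed sign 2 times and Myh2 and Myog 1 time.

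Counts of called genes moved more. In YAP5SA against Control (1771 genes, 7 companions) they were 2937 and 12 with DESeq2, 938 and 4 with the replicate block, 75 and 0 without Controls 1 and 2 and YAP5SA 3, and 544 to 2998 and 3 to 11 when each library was left out, lowest for genes without YAP5SA 3 and highest without YAP5SA 2. In MEF2A against Control (3 genes, 0 companions) they were 0 genes with RLE scaling, library totals, a minimum count of 30, limma-voom, no batch term or the replicate block, 84 with DESeq2, 358 and 2 with no filter, 482 and 3 in batch 1, 1 gene without Controls 1 and 2 and YAP5SA 3, and 0 to 101 genes without 1 library. The number of the 8 genes higher without overlap there was 0, and 1 in batch 1, where the share over all genes was not computed.

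With both viruses against Control (244 and 2) they were 411 and 1 with library totals, 934 and 6 with no filter, 818 genes with DESeq2, 386 with limma-voom, 470 with no batch term, 187 and 1 with the replicate block, 1395 and 6 in batch 1, 138 and 1 without Controls 1 and 2, 43 and 0 without YAP5SA 3 as well, and 89 to 361 and 0 to 3 without 1 library. Against YAP5SA (0 and 0) they were 164 and 3 with no filter, 17 genes with DESeq2, 1 with limma-voom, 6 in batch 1, and 0 to 227 and 0 to 1 without 1 library, highest without YAP5SA 2. Against MEF2A (418 and 5) they were 1103 and 9 with no filter, 1025 genes with DESeq2, 207 and 3 with the replicate block, 644 genes without Controls 1 and 2, 3 companions with library totals or without YAP5SA 3 as well, 2 in batch 1, and 90 to 672 and 0 to 6 without 1 library. The causes were not tested. Library totals in YAP5SA against Control gave 1703 genes higher and 33 lower, against 1022 and 749 with TMM. Myh8 per kb moved to 6.74 and 14.9 with transcript length. Same-numbered libraries showed little shared deviation from their group means over all genes (16 pairs, r from -0.184 to 0.0894). With batch left in and only 2 to 5 libraries per group, this cannot exclude that the numbers pair them. Only 2 libraries with both viruses, all in batch 1, limit their comparisons.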

Other observations

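Vgll2, a muscle cofactor of TEAD factors, was noticed after its values were seen. It had 0 counts in every Control and MEF2A library, 4, 2 and 21 counts in YAP5SA 1 to 3, and 11 and 9 with both viruses. Against a floor of 3 counts over the Control group, YAP5SA was at least 12.8-fold higher. In edgeR's test over all genes YAP5SA against Control did not pass (adjusted p = 0.07). Chrna1, the alpha subunit of the muscle acetylcholine receptor, had 0 counts in Control and MEF2A, 2 in YAP5SA 1, and 2 and 3 with both viruses, too few for the filter. Pax3, Myf5 and Myf6, other factors of muscle cells, had 0 counts in all YAP5SA libraries, and Control libraries held at most 1, 6 and 2 counts. MEF2A libraries held at most 5, 10 and 7. With both viruses the only counts were 2 of Myf5 in YAP5SA_MEF2A 1.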
